A study of Mus musculus with 12 samples.

Results

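Genomic imprinting leaves a gene active on the chromosome copy inherited from 1 parent and silent on the other, through DNA methylation marks set in the germ line. Many imprinted genes act on prenatal growth, and a group of them is co-expressed in embryonic tissues and declines after birth, a group known as the imprinted gene network. The 10 genes described here belong to that group and were taken as a named list, 10 of the 26305 gene identifiers in the count table: the long noncoding RNAs H19 and Meg3, and the protein-coding genes Dlk1, Peg3, Mest, Plagl1, Grb10, Ndn, Sgce and Peg10. The list was chosen with earlier results of these data known, so its counts set beside those of all genes are description only. In the mouse, H19, Meg3 and, outside neurons, Grb10 are transcribed from the maternal copy, and the other members from the paternal copy. Gene counts do not tell the parental copies apart, so all values below are sums over both.

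RNA was sequenced from primary mouse embryonic fibroblasts, isolated from wild-type male C57BL/6 embryos at E13.5 and grown with 10% serum in 3% O2 and 5% CO2. The 4 groups of 3 biological replicates were DMSO, the solvent, for 96 h, DMSO for 240 h, WM-2474 at 10 µM for 96 h and WM-2474 at 10 µM for 240 h. The labels call WM-2474 an inactive control; an active compound is not analysed here. The labels do not say whether the embryos were littermates or pooled, nor how many passages the cultures had gone through. The labels give no day of harvest, so time in culture and any difference between harvests cannot be told apart.

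Library totals were 7313007 to 26019167 counts, and each of the 10 members had at least 102 counts in every library and passed the filter on low counts that left 13499 tested genes. Levels are given as CPM, the share of a library's counts scaled between libraries with TMM factors. A floor of 3 counts corresponds to at most 0.410 CPM, which covers counting error only. The 10 fibroblast markers were all expressed and summed to 32721 to 38711 CPM at 96 h and 50320 to 54866 CPM at 240 h. The 12 proliferation markers summed to 1095 to 1173 CPM at 96 h and 797 to 921 CPM at 240 h, and their part in the time changes below was not tested. DMSO 240 h replicates 1 and 2 stood apart, with 5.24 and 4.48 CPM of Xist, the noncoding RNA of X inactivation, where no other library exceeded 0.925 CPM. These replicates also had 51.5 and 48.5 CPM over 14 B-lineage markers against 26.5 to 38.3 CPM elsewhere, a sum that includes Ebf1, which fibroblasts also express. RNA was taken from whole cultures, so fewer cells of a type and less RNA per cell cannot be told apart.

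**Figure D1:**
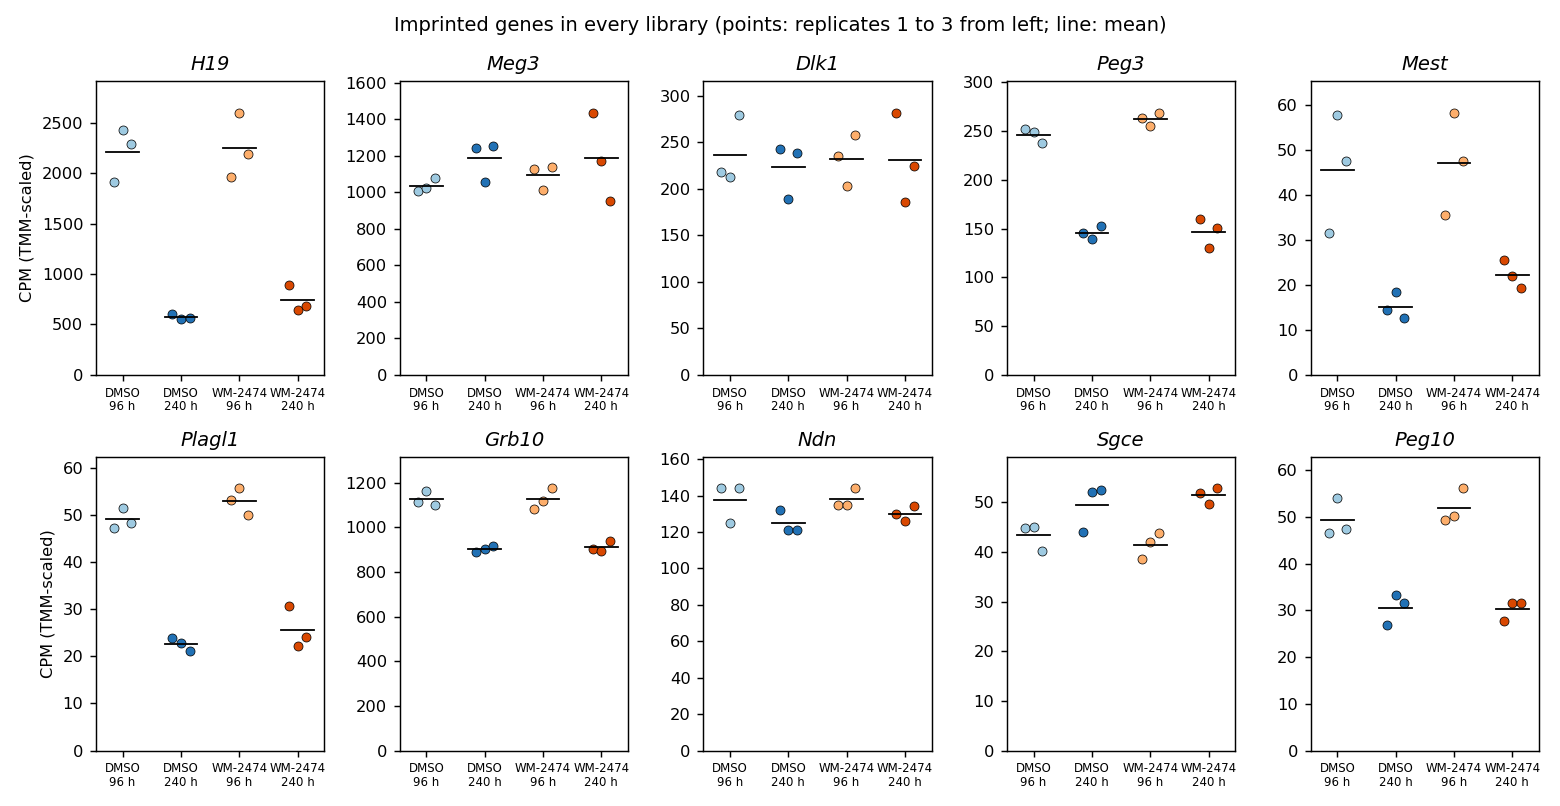
CPM of the 10 imprinted genes in each of the 12 libraries (points, replicates 1 to 3 from left to right) with the mean of each group (line); every axis starts at 0. H19, Peg3, Mest, Plagl1, Grb10 and Peg10 lay lower in all 240 h libraries than in all 96 h libraries of the same treatment, and Dlk1 and Meg3 overlapped between the times.

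How the imprinted genes behaved as fibroblasts stayed longer in culture was asked first in DMSO. Between 96 h and 240 h, 7 of the 10 members fell (H19, Mest, Plagl1, Peg3, Peg10, Grb10 and Ndn), 1 rose (Sgce), and Dlk1 and Meg3 did not pass. Among all tested genes 34.8% passed in this comparison, 17.3% lower and 17.5% higher, by edgeR's quasi-likelihood test at an adjusted p under 0.05. The members' median log2 change was -0.50, beside -0.01 over all tested genes. For 6 members all DMSO libraries at 240 h lay below all those at 96 h, which held for 22.8% of tested genes; 0 members lay above, against 22.9%. With WM-2474, in libraries that the DMSO comparison does not use, the same 6 largest falls and the rise of Sgce passed again, while Ndn did not (background 30.7% in either direction, 14.8% lower and 15.9% higher). The median there was -0.54, and 7 members lay lower and 1 higher without overlap, against 21.2% and 21.1% of tested genes. Calls were shared over all genes as well: the 1538 genes lower in both made up 66% of those lower with DMSO and 76.9% of those lower with WM-2474, and the 1680 genes higher in both made up 71.1% and 78.2%. Scaling by library totals alone moved the median of all genes to -0.13 with DMSO and to -0.14 with WM-2474. The split of calls then went from 2364 higher and 2330 lower to 1190 and 4381 with DMSO. With WM-2474 it went from 2147 and 1999 to 1097 and 4391.

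**Figure D2:**
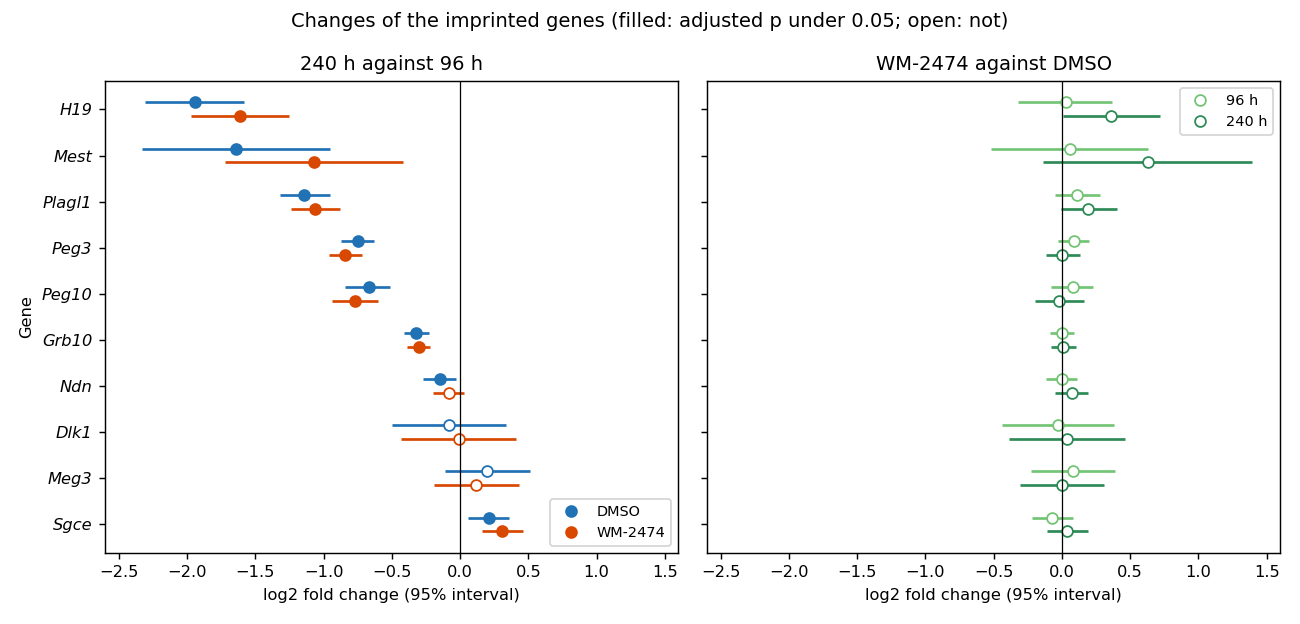
Log2 fold changes with 95% intervals for the 10 genes, at left 240 h against 96 h within DMSO or WM-2474 and at right WM-2474 against DMSO at 96 h or 240 h; filled points passed an adjusted p of 0.05. The falls ran from -1.94 for H19 to -0.15 for Ndn with DMSO, and no point at right passed.

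H19 is an abundant noncoding RNA next to the growth factor gene Igf2, and a control region between them lets one be used on each parental copy. H19 (gene 14955) spans chromosome 7 from 142575530 to 142578146 on the reverse strand of GRCm38, the build that mm10 represents. It had 1911, 2424 and 2293 CPM in DMSO replicates 1, 2 and 3 at 96 h and 607, 556 and 560 CPM at 240 h. With WM-2474 it had 1957, 2601 and 2189 CPM at 96 h and 892, 641 and 683 CPM at 240 h. Every 240 h library lay far below every 96 h library. H19 fell by 1.94 ± 0.16 on the log2 scale (SE, adjusted p = 2.06e-05 in edgeR, a 3.85-fold fall) with DMSO and fell by 1.61 ± 0.16 (adjusted p = 7.03e-05, 3.05-fold) with WM-2474. The H19 transcript also holds the hairpin of miR-675. Its mature forms were not measured by this messenger RNA library, and are shown because they are cut from the transcript with the largest fall of the 10. They lie in RefSeq's GRCm38.p6 at chromosome 7 from 142577112 to 142577133 (5p) and from 142577078 to 142577099 (3p), and capitals mark the seed, bases 2 to 8.
mmu-miR-675-5p: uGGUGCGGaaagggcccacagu
mmu-miR-675-3p: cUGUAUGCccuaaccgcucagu

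Igf2 was the gene whose values ran closest to those of H19. The likeness of a pair of genes was measured as the mean absolute difference of their centred log2 CPM over the 12 libraries, and it was 0.10 for Igf2, then 0.14 for Dact2 and 0.14 for Acss2. Igf2 had 807, 1237 and 1088 CPM in DMSO replicates 1, 2 and 3 at 96 h and 238, 281 and 258 CPM at 240 h. In WM-2474 libraries the values were 879, 1309 and 1085 CPM at 96 h and 374, 303 and 308 CPM at 240 h. It fell by 2.01 ± 0.20 (adjusted p = 7.82e-05 in edgeR) and fell by 1.73 ± 0.20 (adjusted p = 0.000197) on the log2 scale. Both genes of the pair thus lay at a fraction of their 96 h level, although they are used on opposite parental copies. On the other side of H19, the mitochondrial ribosomal protein gene Mrpl23 did not pass (log2 -0.09 with DMSO and -0.28 with WM-2474). Cdkn1c, a cyclin-dependent kinase inhibitor used on the maternal copy of another domain of chromosome 7, fell from 61.6 ± 7.32 to 13.8 ± 2.85 CPM with DMSO (SD, n = 3; log2 -2.15 ± 0.27 as SE, adjusted p = 0.000327 in edgeR). With WM-2474 it fell from 65.2 ± 3.2 to 22 ± 10.2 CPM (log2 -1.6 ± 0.26, adjusted p = 0.00154).

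**Figure D3:**
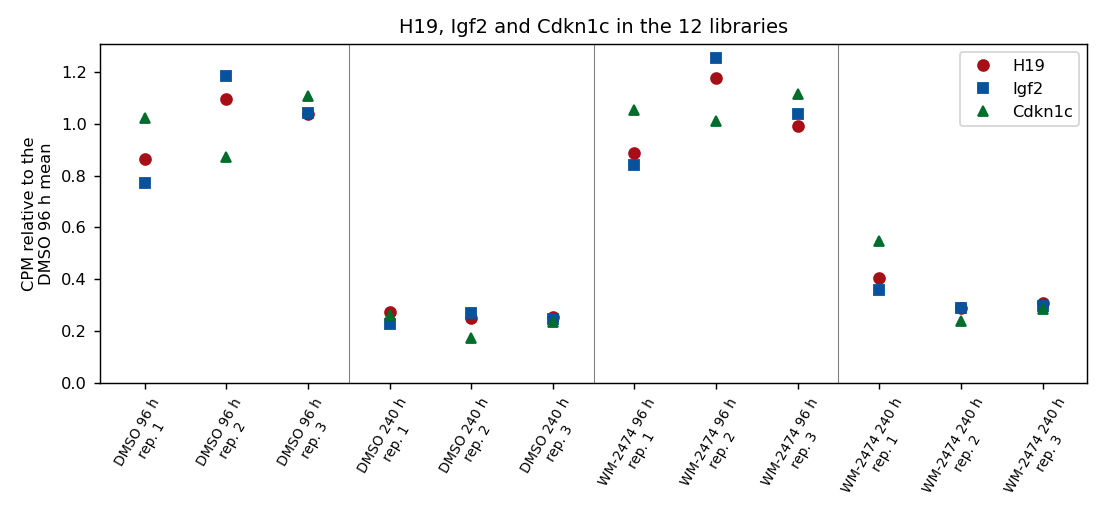
CPM of H19, Igf2 and Cdkn1c in each library, divided by the mean of the gene in DMSO at 96 h, with the axis from 0. All 3 genes lay lower in every 240 h library than in any 96 h library, and among the WM-2474 240 h libraries replicate 1 was highest for each, with 892 CPM of H19, 374 CPM of Igf2 and 33.7 CPM of Cdkn1c.

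Of the transcription factors, Plagl1 encodes a zinc finger protein that can halt the cell cycle and has been placed at the hub of the imprinted network. Plagl1 (gene 22634, chromosome 10 from 13090832 to 13131694, forward strand) had 47.2, 51.6 and 48.4 CPM in DMSO replicates 1, 2 and 3 at 96 h and 23.8, 22.8 and 21.2 CPM at 240 h. The WM-2474 libraries had 53.1, 55.7 and 50.1 CPM at 96 h and 30.8, 22.2 and 24.1 CPM at 240 h. The groups did not overlap, and Plagl1 fell by 1.14 ± 0.09 with DMSO (adjusted p = 2.34e-10 in edgeR) and fell by 1.06 ± 0.09 with WM-2474 (adjusted p = 7.05e-10) on the log2 scale. The genes of like pattern included the secreted pentraxin Ptx3 (0.09) and the matrix protein Tgfbi (0.09).

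Peg3 encodes a large zinc finger protein used on the paternal copy. Peg3 (gene 18616, chromosome 7 from 6703892 to 6730462, reverse strand) had 252, 249 and 238 CPM in DMSO replicates 1, 2 and 3 at 96 h and 145, 139 and 153 CPM at 240 h. The WM-2474 libraries had 263, 255 and 269 CPM at 96 h and 160, 130 and 151 CPM at 240 h. Its replicates lay close together, and Peg3 fell by 0.75 ± 0.06 (adjusted p = 2.34e-10 in edgeR) and fell by 0.84 ± 0.06 (adjusted p = 2.95e-11) on the log2 scale. The genes of most like pattern were the transcription factor Nfib (0.04), Fdft1, which encodes squalene synthase (0.06), and Smoc2, a secreted matrix-associated protein (0.06). Its neighbour Zim1, a zinc finger gene with a maternal bias, rose with DMSO (log2 0.45 ± 0.14, adjusted p = 0.0116) and had a log2 change of -0.05 ± 0.14 with WM-2474.

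Mest, which encodes a hydrolase-like membrane protein of mesoderm, had the largest standard errors of the 10. Mest (gene 17294, chromosome 6 from 30733506 to 30748466, forward strand) had 31.5, 57.8 and 47.5 CPM in DMSO replicates 1, 2 and 3 at 96 h and 14.4, 18.5 and 12.6 CPM at 240 h. With WM-2474 it had 35.6, 58.3 and 47.5 CPM at 96 h and 25.6, 21.9 and 19.3 CPM at 240 h. The times did not overlap in either treatment. Mest fell by 1.64 ± 0.30 with DMSO (adjusted p = 0.00304 in edgeR) and fell by 1.07 ± 0.28 with WM-2474 (adjusted p = 0.0208) on the log2 scale. The fall with WM-2474 lost its call without WM-2474 96 h replicate 2 (log2 -0.89, adjusted p = 0.0659) or 3 (-1.07, adjusted p = 0.0533), or WM-2474 240 h replicate 2 (-1.05, adjusted p = 0.0727) or 3 (-0.99, adjusted p = 0.0693). The annotated spans of Mest and its neighbour Copg2 overlap, and the strand setting of the counting was not given in the sources used here; Copg2 did not pass (log2 -0.02 and 0.09). The genes of most like pattern were the ion exchanger Slc24a3 (0.11), the transcription factor Foxc1 (0.14) and the growth factor Bmp4 (0.17). An intron of Mest holds miR-335, whose mature forms were not measured either and are shown as the second microRNA of a member that fell. They lie at chromosome 6 from 30741314 to 30741336 (5p) and from 30741354 to 30741375 (3p) of GRCm38.p6, with the seed in capitals.
mmu-miR-335-5p: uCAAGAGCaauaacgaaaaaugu
mmu-miR-335-3p: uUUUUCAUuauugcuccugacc

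Plagl1, Mest and Peg3 fell in both treatments and are known to have germ-line methylation marks near a start site, so the 250 bases before a start are shown for them, read 5′ to 3′ from RefSeq's GRCm38.p6 promoters. Capitals mark TGCCGC or its reverse complement GCGGCA, the letters that the imprint-protecting zinc finger protein ZFP57 recognises when methylated; the forms can overlap each other where they abut, and the matches shown do not. Of 32851 promoters of the same length, 8.68% held the letters on either strand and 0.874% held them 2 or more times. Plagl1 held 1 match, the second annotated start of Mest held 2, and Peg3 held 0 in this window. The first start of Mest held 0 and is not shown. Grb10, which also fell in both treatments and is not shown, held 0 at each of its 2 starts. Over the 7 members with an entry (Meg3, Dlk1, Peg3, Mest, Plagl1, Grb10 and Ndn), 3 held a match at any of their 11 start sites, the third being Meg3, whose change did not pass. Another annotated start of Mest lies 3 bases further on, and its window shares these matches. The 8.68% counts single promoters, whereas a member with several start sites had several windows, so the shares are not alike. These are matches of letters only.
Plagl1 (chr10:13090582-13090831, forward strand): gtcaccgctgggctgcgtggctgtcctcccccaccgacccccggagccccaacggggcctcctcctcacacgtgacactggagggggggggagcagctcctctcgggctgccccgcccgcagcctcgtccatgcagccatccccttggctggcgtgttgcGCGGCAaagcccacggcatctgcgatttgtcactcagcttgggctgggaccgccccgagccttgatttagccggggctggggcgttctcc
Mest, second start (chr6:30737800-30738049, forward strand): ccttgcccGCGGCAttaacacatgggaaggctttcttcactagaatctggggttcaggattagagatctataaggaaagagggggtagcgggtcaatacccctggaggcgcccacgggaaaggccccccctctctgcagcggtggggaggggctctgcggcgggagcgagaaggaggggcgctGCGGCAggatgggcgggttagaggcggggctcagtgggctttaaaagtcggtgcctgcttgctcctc
Peg3 (chr7:6730420-6730669, reverse strand): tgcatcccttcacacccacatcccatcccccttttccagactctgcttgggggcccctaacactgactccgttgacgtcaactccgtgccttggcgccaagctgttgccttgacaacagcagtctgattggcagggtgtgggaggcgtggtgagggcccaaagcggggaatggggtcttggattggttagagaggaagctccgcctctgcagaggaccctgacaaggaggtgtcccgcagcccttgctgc

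Sgce and Peg10 moved in opposite directions although their start sites face away from each other with 102 bp between them. Sgce encodes epsilon-sarcoglycan, a membrane protein of the dystrophin-associated complex, and Peg10 derives from a retrotransposon and is needed in the placenta; both are used on the paternal copy. Sgce (gene 20392, chromosome 6 from 4674350 to 4747204, reverse strand) had 44.8, 45.0 and 40.1 CPM in DMSO replicates 1, 2 and 3 at 96 h and 43.9, 52.0 and 52.5 CPM at 240 h. In WM-2474 libraries the values were 38.6, 42.0 and 43.7 CPM at 96 h and 51.9, 49.6 and 52.8 CPM at 240 h. The times overlapped for Sgce with DMSO and did not with WM-2474. Sgce rose by a log2 fold change of 0.21 ± 0.07 with DMSO (adjusted p = 0.0276 in edgeR) and 0.31 ± 0.07 with WM-2474 (adjusted p = 0.00173). The DMSO call was lost without DMSO 96 h replicate 3 (log2 0.15, adjusted p = 0.15), without DMSO 240 h replicate 2 (0.18, adjusted p = 0.0889) or 3 (0.15, adjusted p = 0.215) and by DESeq2 (0.21, adjusted p = 0.0592). With library totals in place of scaling factors, the medians of all genes were the -0.13 and -0.14 given above. The log2 fold changes of Sgce were then 0.08 (adjusted p = 0.362 in edgeR) and 0.18 (adjusted p = 0.0508).

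Peg10 (gene 170676, chromosome 6 from 4747306 to 4760517, forward strand) had 46.6, 54.0 and 47.3 CPM in DMSO replicates 1, 2 and 3 at 96 h and 26.8, 33.3 and 31.5 CPM at 240 h. The WM-2474 libraries had 49.2, 50.2 and 56.1 CPM at 96 h and 27.8, 31.5 and 31.6 CPM at 240 h. All 240 h libraries lay below all 96 h libraries, and Peg10 fell by 0.67 ± 0.08 with DMSO (adjusted p = 3.08e-07 in edgeR) and fell by 0.77 ± 0.08 with WM-2474 (adjusted p = 4.38e-08) on the log2 scale. The ratio of Sgce to Peg10 counts within a library needs no scaling between libraries. It was 0.962, 0.834 and 0.848 in DMSO replicates 1, 2 and 3 at 96 h and 1.64, 1.56 and 1.67 at 240 h. With WM-2474 it was 0.784, 0.838 and 0.779 at 96 h and 1.87, 1.57 and 1.67 at 240 h. Sgce thus had fewer counts than Peg10 in all 6 libraries at 96 h and more in all 6 at 240 h. The log2 ratio was higher at 240 h by 0.88 with DMSO and 1.09 with WM-2474, on average by 0.99 (exact permutation of times within treatments, two-sided p = 0.005, the smallest that the 400 groupings can give; 0.01 when adjusted over the 2 pairs of members less than 100 kb apart). Leaving out any library kept the average between 0.95 and 1.02. Of the other neighbours on chromosome 6, Casd1 did not pass (log2 -0.13 and -0.01). Ppp1r9a, beyond Peg10, fell with WM-2474 (log2 -1.25, adjusted p = 0.00416 in edgeR) and had a log2 change of -0.65 with DMSO (adjusted p = 0.106). It had only 7, 12 and 6 counts in WM-2474 replicates 1, 2 and 3 at 240 h, so the size of its fall is imprecise.

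**Figure D4:**
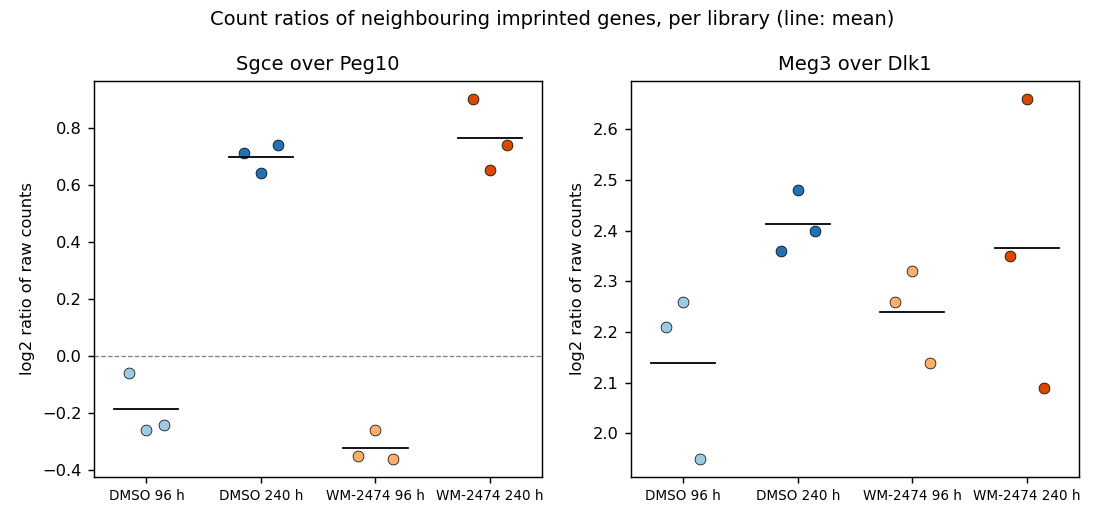
Log2 ratio of raw counts within each library for the neighbouring members Sgce and Peg10 (left, dashed line at equal counts) and Meg3 and Dlk1 (right), with group means as lines; the axes do not start at 0. The Sgce over Peg10 ratio was below 1 in the 6 libraries at 96 h and above 1 in the 6 at 240 h, while the Meg3 over Dlk1 ratios of the times overlapped with WM-2474.

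The domain of chromosome 12 that holds Dlk1 and Meg3 showed no call. Dlk1 encodes a membrane protein with EGF-like repeats that restrains fat cell formation, and Meg3 is a noncoding RNA used on the maternal copy, 77660 bp further along. Dlk1 (gene 13386, chromosome 12 from 109452485 to 109463336, forward strand) had 218, 213 and 279 CPM in DMSO replicates 1, 2 and 3 at 96 h and 243, 189 and 238 CPM at 240 h. The WM-2474 libraries had 235, 203 and 258 CPM at 96 h and 282, 186 and 224 CPM at 240 h. Dlk1 overlapped between times throughout, with log2 changes of -0.08 (95% interval -0.50 to 0.34) and -0.01 (interval -0.43 to 0.41).

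Meg3 (gene 17263, chromosome 12 from 109540996 to 109571729, forward strand) had 1008, 1021 and 1076 CPM in DMSO replicates 1, 2 and 3 at 96 h and 1244, 1059 and 1254 CPM at 240 h. With WM-2474 it had 1128, 1013 and 1141 CPM at 96 h and 1437, 1174 and 955 CPM at 240 h. Its log2 changes were 0.20 (interval -0.11 to 0.51) with DMSO and 0.12 (interval -0.19 to 0.43) with WM-2474. In a fit of the 6 DMSO libraries alone, Meg3 was called higher at 240 h (log2 0.20, adjusted p = 0.00874 in edgeR). The ratio of Meg3 to Dlk1 counts averaged 4.4 at 96 h and 5.33 at 240 h with DMSO, and 4.73 and 5.16 with WM-2474. The mean log2 difference of that ratio was 0.20 (exact permutation p = 0.08, also 0.08 when adjusted over both pairs), and without WM-2474 240 h replicate 3 it was 0.27 (exact permutation p = 0.005). Other transcripts of the domain, named after their values were seen, did not pass: the noncoding RNAs Rian (log2 -0.01 and 0.01) and Mirg (-0.06 and -0.11), the retrotransposon-like gene Rtl1 (-0.49 and -0.19), whose span overlaps Meg3, and the deiodinase gene Dio3 (-0.36 and -0.33).

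Grb10 and Ndn are growth suppressors of different kinds. Grb10 is an adaptor that binds the insulin and IGF1 receptors and restrains their signals. Grb10 (gene 14783, chromosome 11 from 11930499 to 12037428, reverse strand) had 1115, 1164 and 1101 CPM in DMSO replicates 1, 2 and 3 at 96 h and 889, 903 and 917 CPM at 240 h. In WM-2474 libraries the values were 1082, 1117 and 1175 CPM at 96 h and 903, 893 and 937 CPM at 240 h. The groups did not overlap, and Grb10 fell by 0.32 ± 0.04 (adjusted p = 2.08e-06 in edgeR) and fell by 0.30 ± 0.04 (adjusted p = 4.34e-06) on the log2 scale, a 1.25-fold and a 1.23-fold fall. The actin nucleator gene Cobl, on the side of its start, rose in both treatments (log2 0.92, adjusted p = 0.0026, and 0.77, adjusted p = 0.0123), and Ddc, on the other side, did not pass (-0.92 and -0.85, adjusted p = 0.0531 and 0.102).

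Ndn encodes necdin, which binds E2F and p53 proteins. Ndn (gene 17984, chromosome 7 from 62348277 to 62349928, forward strand, 1 exon) had 144, 125 and 144 CPM in DMSO replicates 1, 2 and 3 at 96 h and 132, 121 and 121 CPM at 240 h. The WM-2474 libraries had 135, 135 and 144 CPM at 96 h and 130, 126 and 134 CPM at 240 h. The times overlapped for Ndn with DMSO and lay just apart with WM-2474. Ndn fell by 0.15 ± 0.06 with DMSO (adjusted p = 0.0407 in edgeR) and had a log2 change of -0.08 ± 0.06 with WM-2474 (adjusted p = 0.284). The DMSO call was lost by DESeq2 (adjusted p = 0.07) and limma-voom (adjusted p = 0.0758), without DMSO 96 h replicate 1 (adjusted p = 0.13) or 3 (0.157), and without DMSO 240 h replicate 2 (adjusted p = 0.127) or 3 (0.18). Leaving out DMSO 240 h replicates 1 and 2 together kept only replicate 3 of that group, with a log2 change of -0.19 for Ndn. With library totals, Ndn passed with WM-2474 as well (log2 -0.22, adjusted p = 0.00394). Its neighbour Magel2, a related gene of the MAGE family, fell from 3.36, 1.49 and 2.37 CPM to 0.142, 0.272 and 0.521 CPM with DMSO (log2 -2.61 ± 0.44, adjusted p = 5.09e-05). In DMSO 240 h replicates 1 and 2 Magel2 had 1 and 2 counts, under the floor, so that the size of its fall is imprecise.

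Per kilobase of counted length, the levels of the 10 genes spanned 2 orders of magnitude, from 845 ± 102 CPM per kb (SD, n = 3) for H19 to 7.39 ± 0.611 for Peg10 in DMSO at 96 h. Grb10 followed H19 with 218 CPM per kb, then Ndn with 83.3 and Meg3 with 80.2, which overlapped, then Dlk1 with 49.2, Peg3 with 37.2, Sgce with 23.1, Mest with 16.4 and Plagl1 with 9.33. At 240 h H19 was still the highest, at 220 ± 10.9 CPM per kb, but close to Grb10 at 175 ± 2.63. Sgce (26.4) then stood above Peg3 (22.0) in every DMSO library, the reverse of 96 h. Mest (5.46), Peg10 (4.58) and Plagl1 (4.3) formed the low end, where each overlapped the next in the order. With WM-2474 at 240 h the order was the same down to Mest, with H19 at 282 ± 51.6 CPM per kb.

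The order of the replicates within a group was also compared between members. In WM-2474 at 240 h replicate 1 had the highest value of the 3 for 6 of the 10 members (H19, Meg3, Dlk1, Peg3, Mest and Plagl1), and replicate 2 had the lowest for 7. Without that replicate 1 the log2 changes with WM-2474 were -1.76 for H19, -1.2 for Plagl1, -1.17 for Mest and -0.90 for Peg3, all still called. At 96 h the replicates ranked in the same order with DMSO and WM-2474 for 4 members (H19, Dlk1, Mest and Ndn). At 240 h they did so for 2 (H19 and Dlk1). Between the times the order was the same for 1 member with DMSO (Peg10) and 2 with WM-2474 (Ndn and Peg10). Such counts of replicate order were not made over all tested genes and are description only. Without DMSO 240 h replicates 1 and 2, which stood apart in Xist and B-lineage transcripts, only replicate 3 of that group was left. The log2 change of H19 with DMSO was then -1.98.

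WM-2474 was next compared with DMSO at each time. At 96 h 0 of the 10 members passed in either direction (background 0% of tested genes). No tool of the 3 used, edgeR, DESeq2 and limma-voom, gave a member an unadjusted p under 0.05, a count of 0 in each. The members' log2 differences ran from -0.07 for Sgce to 0.11 for Plagl1. Peg3 was the 1 member whose libraries did not overlap at 96 h, higher with WM-2474 as for 3.62% of tested genes, and 0 members were lower without overlap (background 3.83%). At 240 h 0 of 10 passed (background 0.0296%), and the members below an unadjusted p of 0.05 numbered 1 by edgeR and 2 each by DESeq2 and limma-voom; DESeq2 gave 6 of the 10 an adjusted p. The member under that level in edgeR was H19, at 575 ± 28.6 CPM with DMSO and 739 ± 135 CPM with WM-2474 (SD, n = 3; log2 0.36, 95% interval 0.01 to 0.72, adjusted p = 0.609). Mest had 15.2 ± 3.02 and 22.3 ± 3.17 CPM (log2 0.63, interval -0.14 to 1.39, adjusted p = 0.67). For these 2 members the lowest WM-2474 library exceeded the highest DMSO library at 240 h, as for 7.58% of tested genes, and 0 members were lower without overlap (background 6.72%). Grb10 had the narrowest interval, -0.08 to 0.10 around a log2 difference of 0.01. The difference between the time changes of the treatments passed for 0 of 10 members (background 0%), and the members below an unadjusted p of 0.05 numbered 0 by edgeR, 0 by DESeq2 and 2 by limma-voom. It was widest for Mest (0.57, interval -0.39 to 1.53) and H19 (0.34, interval -0.16 to 0.83), which were also the members with the largest falls.

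Other imprinted genes were taken from 2 lists, also chosen with earlier results of these data known. Of 21 genes used on the paternal copy in at least some tissues, 17 were tested. With DMSO 6 fell and 2 rose (median log2 -0.36, beside -0.01 over all genes), where 17.3% of all tested genes fell and 17.5% rose. With WM-2474, 7 fell and 0 rose (median -0.33, beside 0.00 over all genes), where 14.8% of all tested genes fell and 15.9% rose. Besides Igf2 and Magel2 they included Slc38a4, an amino acid transporter of the placenta and liver, which fell from 125 ± 0.773 to 83.6 ± 2.34 CPM (SD, n = 3) with DMSO and from 130 ± 2.36 to 77.3 ± 6.85 CPM with WM-2474. The membrane proteolipid gene Nnat fell from 16.5 ± 2.57 to 8 ± 0.6 CPM and from 16.4 ± 1.45 to 9.61 ± 1.14 CPM. The rising pair with DMSO were Inpp5f, a phosphoinositide phosphatase (log2 0.37), and the noncoding RNA Peg13 (0.22).

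Of 30 genes used on the maternal copy in at least some tissues, 23 were tested. With DMSO 11 rose and 2 fell (median log2 0.22; background 17.5% higher and 17.3% lower), and with WM-2474 11 rose and 3 fell (median 0.25; background 15.9% higher and 14.8% lower). The difference between the lists was not tested. Igf2r, which clears IGF2 from the cell surface, rose from 507 ± 11 to 621 ± 20.9 CPM with DMSO (adjusted p = 1.21e-05 in edgeR; SD, n = 3) and from 535 ± 23.4 to 640 ± 20.8 CPM with WM-2474 (adjusted p = 6.47e-05). Tfpi2, a protease inhibitor, rose from 2.85 to 6.87 CPM and from 3.13 to 5.82 CPM, and the oxysterol-binding protein gene Osbpl5 and the tetraspanin gene Cd81 rose by less than 1.3-fold in both. The fallers were Cdkn1c and Asb4 in both treatments and Ppp1r9a with WM-2474. Many of the genes in this list are imprinted in the placenta or brain and not known to be so in fibroblasts.

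**Figure D5:**
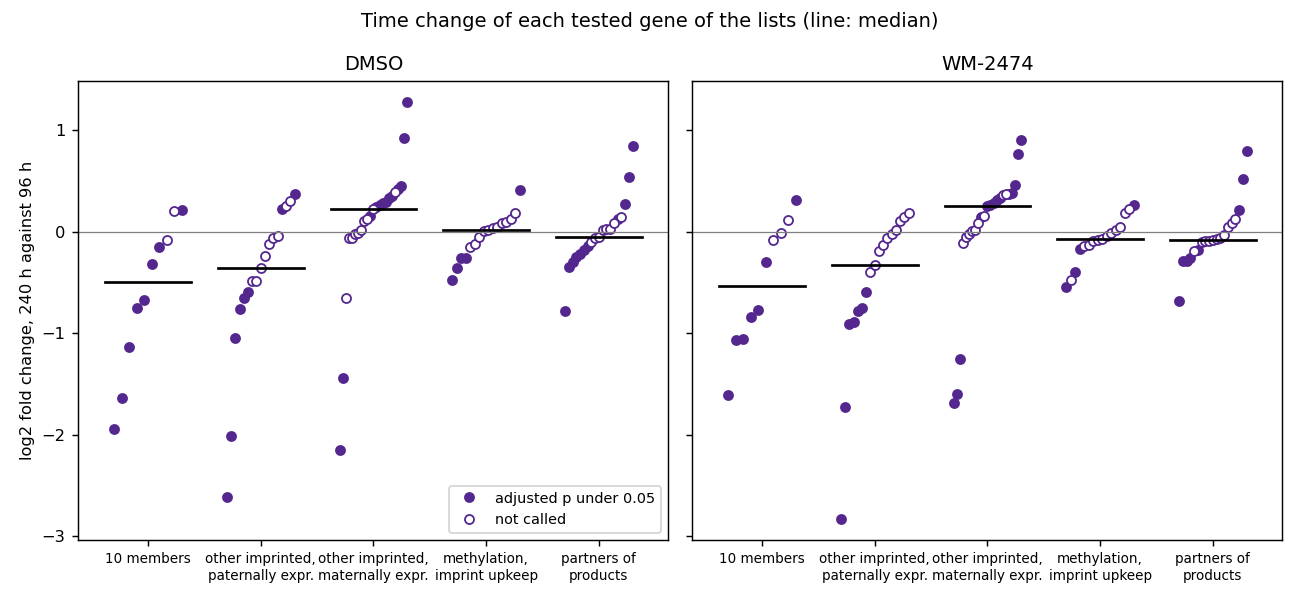
Log2 fold change of 240 h against 96 h for each tested gene of 5 lists, with DMSO (left) and WM-2474 (right); filled points passed an adjusted p of 0.05 and lines are medians. The medians of the 10 members were -0.50 and -0.54, those of other paternally expressed genes -0.36 and -0.33, and those of maternally expressed genes 0.22 and 0.25.

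Genes that set, copy or protect methylation marks gave 4 falls and 1 rise among 16 tested with DMSO and 3 falls and 1 rise with WM-2474. The 5 and 4 calls among 16 are no larger a share than the background of 34.8% and 30.7% of all tested genes, so the count is no result about the list, and the genes below are given for their own values. Dnmt1, which copies methylation at replication, fell from 164 ± 1.86 to 128 ± 3.26 CPM with DMSO (SD, n = 3; log2 -0.36 ± 0.04 as SE, adjusted p = 6.29e-07 in edgeR) and from 165 ± 0.724 to 125 ± 3.23 CPM with WM-2474 (log2 -0.40, adjusted p = 1.15e-07). Its partner Uhrf1 fell from 85.7 ± 2.22 to 60.6 ± 3.67 CPM and from 89.3 ± 1.32 to 61.6 ± 6.37 CPM. Both are used mainly in dividing cells, and the proliferation markers were lower at 240 h as given above. The part of cell division in these falls was not tested. Trim28, the corepressor that ZFP57 recruits, fell by 0.26 ± 0.05 with DMSO and fell by 0.17 ± 0.05 with WM-2474 on the log2 scale, and Zfp57 itself did not pass (-0.12 and -0.14). The rises were Tet1, a methylcytosine oxidase, with DMSO (log2 0.41, adjusted p = 0.0261) and the methyltransferase gene Dnmt3a with WM-2474 (0.26, adjusted p = 0.0126).

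Among 19 tested partners of the members' products, 7 fell and 4 rose with DMSO (background 17.3% lower and 17.5% higher), and 5 fell and 3 rose with WM-2474 (background 14.8% lower and 15.9% higher). Irs2, the insulin receptor substrate, fell by 0.78 ± 0.10 (adjusted p = 4.34e-07 in edgeR) and fell by 0.68 ± 0.10 (adjusted p = 4.56e-06) on the log2 scale, and the insulin receptor gene Insr rose with WM-2474 (0.21, adjusted p = 0.00958). Of the sarcoglycans that assemble with the product of Sgce or its relatives, Sgcd rose (log2 0.85 and 0.80) and Sgcb fell (-0.35 and -0.26) in both treatments. Notch1, whose product DLK1 can bind, rose from 36.1 ± 4.71 to 51.5 ± 4.41 CPM with DMSO and from 41.7 ± 4.64 to 59.2 ± 5.22 CPM with WM-2474. Notch2 of the same list was called lower in both treatments. Igf2bp3, which encodes a protein that binds Igf2 and H19 RNA, fell by 0.25 ± 0.05 with DMSO and fell by 0.29 ± 0.05 with WM-2474 on the log2 scale.

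Of the 16 distinct neighbours that were not members, 4 fell and 2 rose with DMSO and 3 fell and 1 rose with WM-2474, shares near the background of 34.8% and 30.7% of all tested genes. The neighbours that fell in both were the imprinted genes Igf2 and Magel2, and the 1 that rose in both was Cobl. Sf3b5, 81649 bp from Plagl1, fell with DMSO (log2 -0.24, adjusted p = 0.00664 in edgeR). Gm7367, the nearest tested gene on 1 side of Ndn but 2191448 bp away, fell with DMSO as well (log2 -0.57, adjusted p = 0.000958). Each list of markers of other cell types summed to at most 257 CPM in any library. Adipocyte markers (8 listed, 4 tested) summed to 61.1 to 74.7 CPM at 96 h and 42.1 to 52.4 CPM at 240 h, with Cidec and Lep at 0 in every library. Cartilage and bone markers summed to 158 to 257 CPM at 96 h and 121 to 169 CPM at 240 h. Skeletal muscle markers summed to 21.4 to 29.9 CPM at 96 h and 29.2 to 31.5 CPM at 240 h, with Myod1, Myf5 and Pax7 at 0 in all 6 libraries at 240 h. Neural markers (8 listed, 6 tested) summed to 107 to 114 CPM at 96 h and 121 to 131 CPM at 240 h with DMSO, and to 107 to 123 CPM and 120 to 127 CPM with WM-2474. Epithelial markers summed to at most 6.52 CPM and endothelial markers to at most 13.6 CPM, and those of macrophages and other leukocytes to at most 10.9 CPM. The part of these cell types in the members' changes was not tested.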

How the data were processed

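The authors deposited raw counts per gene for 12 libraries, made with featureCounts on mm10 per the submitters' processing notes; per the labels, a stranded mRNA kit was used. Aligner, annotation, strand and multiple-mapping settings: not given in the sources used here. Of 27179 entries, 874 carried no gene ID and stayed out of all totals (0.547 to 0.648% of counts). Symbols came from RefSeq's GRCm38.p6 for 25275 of 26305 identifiers (96.1%).

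edgeR 4.0.16 in R 4.3.3 fitted all libraries with 1 coefficient per group (filterByExpr, TMM factors, robust two-sided quasi-likelihood F test, Benjamini-Hochberg over 13499 genes, threshold 0.05), after the procedure was tested on simulated data. Replicates of a group differed by more than counting noise (chi-square per degree of freedom 2.05 to 5.25).

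Members and lists were chosen with earlier results of these data known. Named genes were the members and up to 3 rising and 3 falling genes of each list by p. The nearest tested gene on either side of a member was also named. For members that passed at both treatments, the 3 genes of most like pattern were added. Rian, Mirg, Dio3, Zfp57 and Notch2 were named after their values were seen. One gene of like pattern is not reported here. Replicate numbers were taken to pair samples where every correlation of deviations exceeded 0.1: treatments at 96 h (0.301, 0.235 and 0.191), not at 240 h (0.0397 to 0.114) or across times (-0.00783 to 0.132). Between treatments at 240 h, replicates 1, 2 and 3 correlated with the same number at 0.0971, 0.114 and 0.0397. The highest correlations with another number were 0.0231, -0.0593 and 0.0132, so each was still closest to its own number. Alternatives were other scaling, filters, DESeq2 1.42.0, limma-voom (limma 3.58.1), a replicate block, fits of the compared libraries alone, and left-out libraries. Leaving out DMSO 240 h replicates 1 and 2 together kept only replicate 3, so calls from that fit rest on an unreplicated group.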

Additional observations from a re-analysis of the deposited data

How the results depend on the processing

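Of 440 time changes of members over all alternatives, 420 kept their direction where called and their side of the threshold, and none of the 1076 values of all comparisons reversed a call. With DMSO the count of rising members was 0 with library totals and with DESeq2, 2 in fits of the compared libraries with or without the replicate block, and 0 to 1 without single libraries; falling members numbered 6 to 7. With WM-2474 rising members numbered 0 with library totals, falling ones 5 to 6 without single libraries. For treatment at 240 h the replicate block with only the compared libraries called 2 members higher, H19 (log2 0.35, adjusted p = 3.81e-05) and Mest (0.55, adjusted p = 0.00222), although the replicate numbers did not pair these libraries by the rule used; at 96 h, where they did, the block changed no member's call (0 higher, 0 lower). Leaving out single libraries gave Meg3 over Dlk1 ratio changes of 0.13 to 0.27, Sgce over Peg10 ones of 0.95 to 1.02.

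Other lists: with library totals, paternally expressed genes had 1 rise with DMSO, maternally expressed ones 5 and 6 falls with DMSO and WM-2474, methylation genes 0 rises in both and 8 falls with WM-2474, and partners 2 rises with DMSO and 11 falls with WM-2474. Paternally expressed genes had 1 rise with DMSO by DESeq2, without DMSO 240 h replicates 1 and 2 together, and 1 to 2 without single libraries. Methylation genes had 0 rises with DMSO by DESeq2 or without that pair, 2 with no filter or only the compared libraries (with or without the replicate block), and 0 to 2 without single libraries; with WM-2474 they had 2 with no filter or the replicate block over all libraries and 0 to 2 without single libraries. Falling partners with DMSO numbered 4 without that pair and 4 to 7 without single libraries, and with WM-2474 3 to 5.

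Over all genes, calls with DMSO without that pair were 1489 higher and 1374 lower. Treatment at 240 h called 4 higher and 0 lower in the reported fit, 39 and 8 with no filter, 11 higher by DESeq2, 2 by limma-voom, 7 with the replicate block, 15 with only the compared libraries, 79 and 12 with both, and 0 to 11 higher and 0 to 12 lower without single libraries; at 96 h the block with only the compared libraries called 3 higher. Depth (7313007 counts at least) limits genes of few counts such as Magel2 and Ppp1r9a, not the members.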
